A study of Mus musculus with 4 samples.

Results

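The genes described here encode 10 transcription factors from families with members that cells switch on within minutes of a stimulus. They are the AP-1 subunits Fos, Fosb, Fosl2, Jun, Junb and Jund, the zinc finger factors Egr1, Egr2 and Egr3, and the orphan nuclear receptor Nr4a1. They were chosen by name, and all 10 were measured among 19938 genes on the arrays, each by 1 probe set. The tested samples were 2 arrays of CD4+ lymphoma cells from the spleen of C57BL/6 mice with a homozygous Tet2 gene trap. Tet2 encodes an enzyme that oxidises 5-methylcytosine in DNA. The wild type samples were 2 arrays of CD4+ splenocytes from C57BL/6 mice without the trap. The trap disrupts the Tet2 transcript by an insertion, and it is present in the lymphoma samples only, so genotype and malignancy cannot be told apart. All 4 samples went through red cell lysis, a cold incubation with a biotinylated CD4 antibody and magnetic column separation, with no sham or fixed-cell control among the samples analysed here. The sources used here give neither animal ages nor whether each array came from its own animal, so p-values measure the spread between these samples only.

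AP-1 is a dimer of basic leucine zipper proteins: Fos proteins pair with Jun proteins, and Jun proteins can also pair among themselves. In T cells, antigen receptor signalling through Ras and MAP kinases and through calcium and calcineurin raises Fos, Jun, Egr and Nr4a transcripts, and AP-1 then acts with NFAT on cytokine genes. Egr2 and Egr3 are known for restraining T cell activation, and Nr4a1 transcripts are widely used as a readout of receptor signal strength. The same immediate early genes also respond to tissue dissociation, temperature shifts and other stress while cells are prepared.

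Promoter sequences are shown for Fosl2, which differed between the groups, and for Fosb, Nr4a1, Junb and Fos, which were higher on wild type array 2 than on wild type array 1 while both lymphoma values lay between those arrays. Each is the 250 bases before the RefSeq start site in GRCm38.p6, read in the direction of transcription. Capitals mark matches, on either strand, to the core of the cyclic AMP response element (TGACG), the EGR element (GCGNGGGCG) and the TATA element (TATAAA).
Fosl2, chr5:32136222-32136471, plus strand: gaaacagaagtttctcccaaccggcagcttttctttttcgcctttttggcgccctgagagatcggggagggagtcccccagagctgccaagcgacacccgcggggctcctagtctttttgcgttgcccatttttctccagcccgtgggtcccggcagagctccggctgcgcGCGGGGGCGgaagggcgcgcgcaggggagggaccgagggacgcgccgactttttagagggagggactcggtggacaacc
Fosb, chr7:19310046-19310295, minus strand: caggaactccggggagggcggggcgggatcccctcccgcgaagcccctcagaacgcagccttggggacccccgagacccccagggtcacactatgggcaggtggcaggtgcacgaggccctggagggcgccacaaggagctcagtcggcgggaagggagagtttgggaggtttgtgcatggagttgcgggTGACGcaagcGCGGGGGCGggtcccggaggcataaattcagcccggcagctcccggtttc
Nr4a1, chr15:101266596-101266845, plus strand: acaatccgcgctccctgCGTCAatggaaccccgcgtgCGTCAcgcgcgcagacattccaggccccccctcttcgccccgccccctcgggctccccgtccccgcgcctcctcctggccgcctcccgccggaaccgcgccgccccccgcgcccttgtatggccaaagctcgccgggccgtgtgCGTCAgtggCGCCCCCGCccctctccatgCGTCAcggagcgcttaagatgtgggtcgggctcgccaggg
Junb, chr8:84978749-84978998, minus strand: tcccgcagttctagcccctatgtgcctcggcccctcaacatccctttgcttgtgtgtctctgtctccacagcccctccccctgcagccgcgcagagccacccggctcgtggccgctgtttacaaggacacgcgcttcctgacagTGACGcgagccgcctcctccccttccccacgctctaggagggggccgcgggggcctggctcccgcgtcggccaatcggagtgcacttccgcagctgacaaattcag
Fos, chr12:85473640-85473889, plus strand: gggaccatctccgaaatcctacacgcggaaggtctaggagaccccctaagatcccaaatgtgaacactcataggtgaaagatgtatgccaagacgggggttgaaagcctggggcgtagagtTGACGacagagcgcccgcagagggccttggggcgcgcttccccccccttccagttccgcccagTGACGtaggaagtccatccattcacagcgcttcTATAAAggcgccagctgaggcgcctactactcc
The TGACG core occurred 4 times before Nr4a1, 2 times before Fos and 1 time each before Fosb and Junb, and the window of Fosl2 held none. It is present in 17.8% of 32851 RefSeq windows of the same length. Fosl2, Fosb and Nr4a1 each held 1 EGR element, present in 4.7% of all windows, and Fos held 1 TATA element, present in 12.4%. The full element TGACGTCA (1.55% of windows) and the AP-1 element TGANTCA (6.75%) were in none of these windows, nor was the CArG box bound by serum response factor (1.47%). A CArG box was found in most windows of Egr2, which are not shown. Sites farther than 250 bases upstream were not searched. Sequences were examined for 8 of the 10 genes, matched by symbol with 1 chromosome left out of the search. None was examined for Egr3 or for Egr1, whose lymphoma values also lay between the wild type arrays. A match to these letters is a description of the window and not a shown binding site.

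The deposited values are linear intensities, and differences are given as log2 of lymphoma over wild type with the standard error of limma, a linear model that borrows variance across genes. A gene counted as called when its Benjamini-Hochberg adjusted p over all 19938 genes was under 0.05. Median intensity over all probe sets lay between 130 and 142 on the 4 arrays. Tet2 had 596 and 399 intensity units in lymphoma, against 980 and 1016 in wild type, with an adjusted p of 0.0771 in limma (0.00156 without lymphoma array 1), and the sources used here do not place the trap relative to its probes. The T cell genes Cd3d, Cd3e and Cd3g, and Cd4, the gene of the selected marker, had log2 differences of 0.63, 0.37, 0.45 and 0.41. Both lymphoma values were above both wild type values for each of these genes, as for 20.6% of all genes, and none was called. Over all genes 2.46% were called lower, the share to set beside the marker counts that follow. Of 8 measured B cell markers 7 fell, and their summed intensity was 2841 and 2633 in lymphoma, against 18743 and 12514 in wild type. Of 9 macrophage and monocyte markers 6 fell (summed 2494 and 3683 in lymphoma, against 9686 and 10294 in wild type), and 6 of 8 dendritic cell markers fell (775 and 803 in lymphoma, against 5070 and 4246 in wild type). Of 5 plasma cell markers 2 fell, and no neutrophil (of 8), natural killer and CD8 T cell (of 6), red cell (of 3), platelet (of 4) or stromal and endothelial marker (of 8) passed, with list medians of 0.14, -0.68, -0.31, -0.10 and -0.16 in that order. Without detection calls no marker can be called absent. B cells and myeloid cells also express immediate early genes, and fewer such cells cannot be told apart from less RNA per cell in these bulk samples. The part of this cell mix in the results below was not tested.

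The arrays also differed in sex-linked transcripts, named after their values were seen. Xist, made from the inactive X chromosome of female cells, had log2 levels of 10.86 and 12.19 in lymphoma arrays 1 and 2, against 12.40 and 5.39 in wild type arrays 1 and 2. The Y-linked Eif2s3y had 9.72 and 3.79 in the lymphoma arrays, against 3.68 and 8.52 in the wild type arrays. Wild type array 2 was thus the array with Y-linked signal and low Xist, and lymphoma array 1 carried both Xist and Y-linked signal. The labels give no sex, and the makeup of the sample on lymphoma array 1 was not tested. With either wild type array removed no gene on the arrays passed in limma, also not Gzmb with a log2 difference of 2.86 or more, so those fits could give only the size of a difference. Fits without a lymphoma array leave the other one alone for its group.

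Of the 10 factors, 1 rose in lymphoma (Fosl2), none fell and 9 did not pass, where 4.27% of all genes were called, 1.82% higher and 2.46% lower. Fosl2 (0.00161) and Egr3 (0.00435) had an unadjusted p under 0.05 in limma. The median log2 difference of the 10 was -0.11, against -0.039 over all genes. Groups did not overlap for 3 of them, Fosl2 and Egr2 higher and Egr3 lower in lymphoma, while 44.1% of all genes showed no overlap, 20.6% higher and 23.5% lower.

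**Figure D1:**
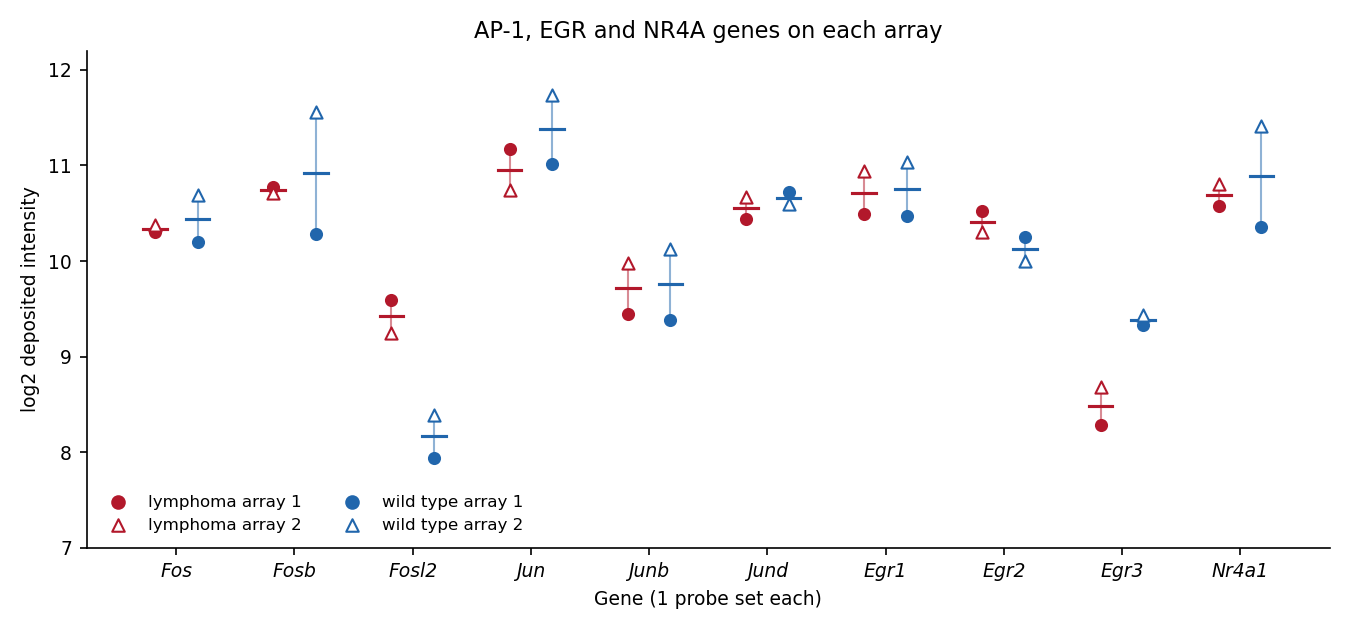
Log2 deposited intensity (vertical axis) of the 10 genes (horizontal axis) on each array, with lymphoma left of wild type, circles for array 1, triangles for array 2 and a bar at the mean of the 2 arrays. Levels compare within a gene only. Fosl2 is higher and Egr3 lower on both lymphoma arrays, and the wild type arrays lie far apart for Fosb and Nr4a1.

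Among the Fos subunits, which supply the partner for Jun in the dimer, the group difference was in Fosl2. Fosl2, also called Fra-2, a Fos protein without the transactivation domain found in Fos and Fosb, had intensities of 773 and 607 in lymphoma arrays 1 and 2, against 246 and 336 in wild type arrays 1 and 2. Both lymphoma values were above both wild type values. The log2 difference was 1.25 (SE 0.24, 95% interval 0.68 to 1.82), a 2.38-fold rise with an adjusted p of 0.0416 in limma. Leaving out wild type array 1 gave 1.03 and leaving out array 2 gave 1.48, in fits that could give only the size of a difference. The call was lost under quantile normalization (1.21, adjusted p = 0.0638 in limma). With the replicate number as a block, which the labels do not show to be a pairing, it was lost too (adjusted p = 0.0604 in limma).

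Fos, the founding subunit, had 1259 and 1328 intensity units in lymphoma, against 1179 and 1651 in wild type. Its lymphoma values lay close together and inside the wild type range. The log2 difference of Fos was -0.11 (95% interval -0.63 to 0.41, adjusted p = 0.898 in limma). Fosb, a paralog of Fos, had 1742 and 1680 units in lymphoma, against 1247 and 3021 in wild type. The wild type arrays differed 2.42-fold for Fosb and the lymphoma arrays 1.04-fold. Its log2 difference was -0.18 (SE 0.39, adjusted p = 0.91 in limma), and the sign turned with the wild type array used: -0.82 without array 1 of that group and 0.46 without array 2. For Fos these values were -0.35 and 0.13.

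No Jun subunit passed. Jun, which can bind DNA with any Fos protein or with itself, had 2308 and 1707 intensity units in lymphoma, against 2076 and 3410 in wild type. Wild type array 2 was the highest of the 4, and the lower lymphoma value lay below both wild type values. Its log2 difference was -0.42 (SE 0.28, adjusted p = 0.603 in limma), between -0.78 and -0.06 with 1 array left out. Junb, an AP-1 subunit that pairs with Batf in T helper cells, had 699 and 1008 units in lymphoma, against 667 and 1124 in wild type. For Junb the 2 arrays numbered 1 were low and the 2 numbered 2 were high in both groups, and the difference was -0.04 (SE 0.31). The sign turned on leaving out wild type array 2 (0.33) or lymphoma array 1 (0.22), and the value was -0.42 without wild type array 1. Jund, the most steadily expressed Jun gene in resting cells, had 1390 and 1634 units in lymphoma, against 1681 and 1555 in wild type. Its 2 groups overlapped, with a log2 difference of -0.10 (95% interval -0.53 to 0.33), or 0.02 without lymphoma array 1.

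No EGR factor passed. These zinc finger proteins bind GC-rich promoter elements. Egr3 had intensities of 313 and 410 in lymphoma, against 642 and 696 in wild type. Both lymphoma values were below both wild type values. The log2 difference of Egr3 was -0.90 (SE 0.21, 95% interval -1.40 to -0.40), 1.87-fold lower, with an adjusted p of 0.077 in limma, so it did not pass. It ranged between -1.09 and -0.71 with 1 array left out, and it passed only without lymphoma array 2 (adjusted p = 0.00748 in limma), a fit in which lymphoma array 1 stood alone for its group. Egr2 had 1472 and 1264 units in lymphoma, against 1220 and 1024 in wild type. Its lymphoma values were both higher, by a small margin, with a log2 difference of 0.29 (95% interval -0.17 to 0.75, adjusted p = 0.597 in limma). Egr1, the EGR factor most used as a marker of acute stimulation, had 1436 and 1967 units in lymphoma, against 1423 and 2102 in wild type. Its groups covered nearly the same range, and the difference of -0.04 (SE 0.26) ranged between -0.32 and 0.24 with 1 array left out.

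Nr4a1, also called Nur77, had intensities of 1529 and 1794 in lymphoma, against 1315 and 2726 in wild type. The lymphoma values lay between the wild type values, which differed 2.07-fold. The log2 difference was -0.19 (SE 0.34, 95% interval -1.03 to 0.64, adjusted p = 0.885 in limma). It was -0.72 without the first wild type array and 0.33 without the second.

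**Figure D2:**
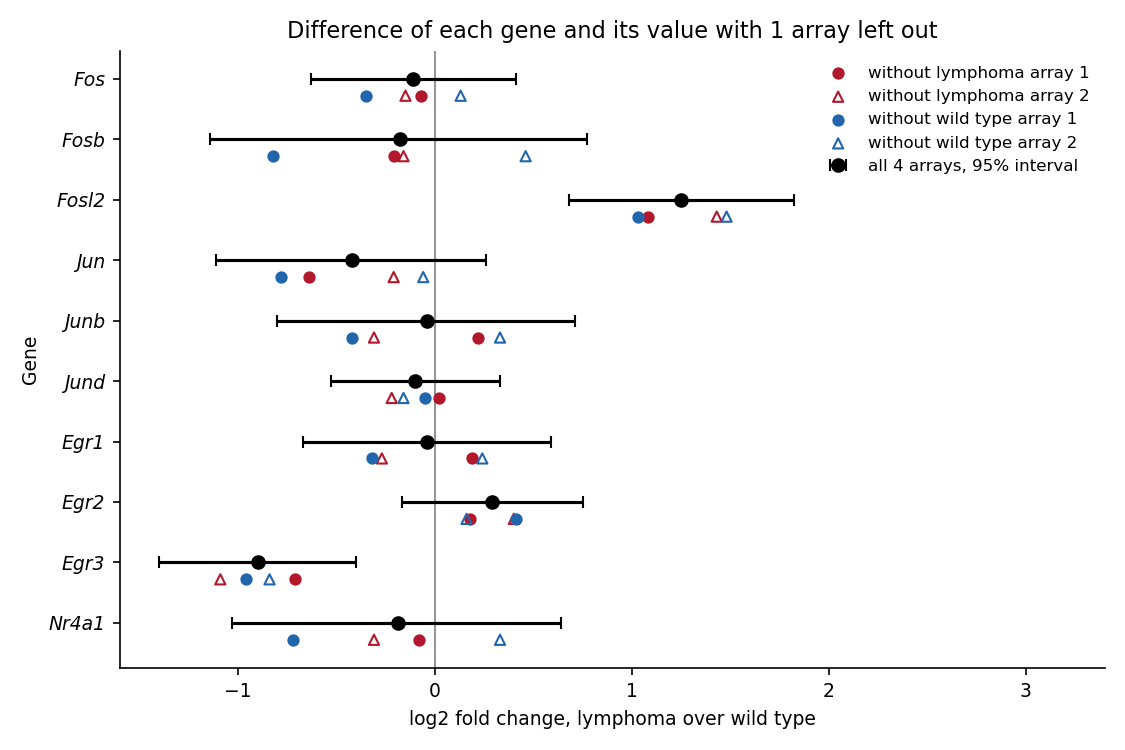
Log2 fold change of lymphoma over wild type (horizontal axis) for each gene (vertical axis), with black points and 95% intervals from limma on all 4 arrays and coloured symbols for the value with 1 array left out. Fosl2 and Egr2 stay above 0 and Egr3 and Jun below 0 in all of these fits. Fos, Fosb, Junb, Jund, Egr1 and Nr4a1 change sign in at least 1. Where the groups do not overlap, as for Fosl2, Egr2 and Egr3, leaving out 1 array cannot change the sign.

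For Fos, Fosb, Jun, Junb, Egr1 and Nr4a1 the gap between the 2 wild type arrays was larger than the mean difference between the groups, while for Fosl2, Egr2 and Egr3 it was smaller. For 5 of the 10 (Fos, Fosb, Junb, Egr1 and Nr4a1) both lymphoma values lay between the wild type values, against 13.3% of all genes. Wild type array 2 was at least 1.5-fold above wild type array 1 for 4 of the 10 (Fosb by 1.28, Nr4a1 by 1.05, Junb by 0.75 and Jun by 0.72 on the log2 scale), against 3.84% of all genes, and none was as far below it, against 4.69%. Just short of that gap were Egr1 with 0.56, Fos with 0.49 and Fosl2 with 0.45. Egr3 (0.11), Jund (-0.11) and Egr2 (-0.25) were closer together. None of the 10 differed as much between the lymphoma arrays, against 12.1% of all genes that did in either direction. These counts were set up after the values were seen and compare single arrays, so they carry no test.

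Some genes known to respond to cell handling also stood higher on wild type array 2. Of 30 measured immediate early and handling genes, 8 were at least 1.5-fold higher there than on wild type array 1, against 3.84% of all genes. None was as far below, against 4.69%. The list and the gap were chosen with results of these samples known, so these counts carry no test. The 8 were Atf3, Dusp1, Klf6, Nfkbiz, Hspa1a, Hsp90aa1, Ppp1r15a and Pmaip1, picked out by this gap. The median gap of the 30, array 2 minus array 1, was 0.20 log2 units in wild type and -0.31 in lymphoma. Of 32 receptor-induced genes, 3 (Ifng, Bhlhe40 and Ccl3) were at least that far above and 2 that far below. Atf3, a stress-induced relative of Jun and Fos, had log2 levels of 7.97 and 7.36 in lymphoma, against 7.70 and 9.05 in wild type. The heat shock gene Hspa1a, also named after its values were seen, had 11.05 and 8.60 in lymphoma, against 8.06 and 10.02 in wild type. Hspa1a was thus high on lymphoma array 1 and wild type array 2, where Fosb and Nr4a1 were high on wild type array 2 alone. Ier2, an immediate early gene, did not follow, with 8.47 and 8.02 in lymphoma, against 8.70 and 8.87 in wild type. Wild type array 2 was also the wild type array with Y-linked signal and with the lower B cell marker sum, and the part of handling, sex or cell mix in its higher AP-1 and Nr4a1 levels was not tested.

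**Figure D3:**
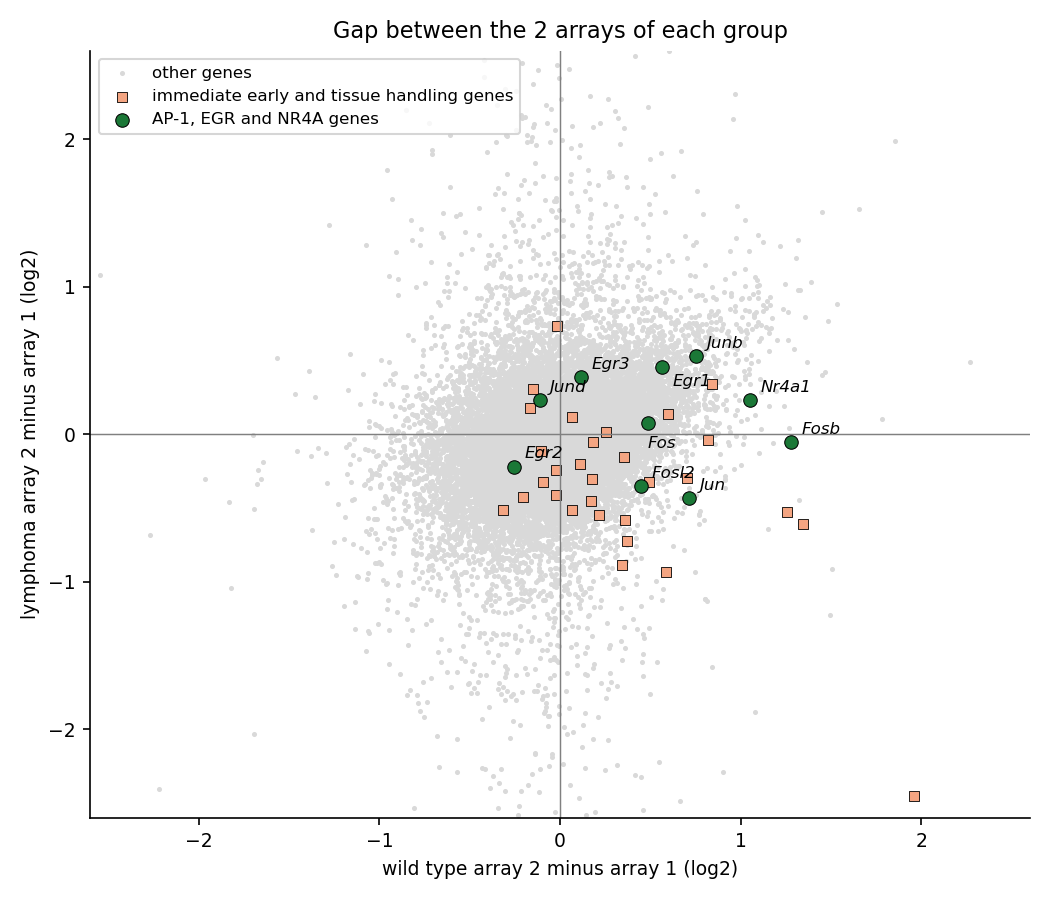
Log2 gap between wild type arrays 2 and 1 (horizontal axis) and between lymphoma arrays 2 and 1 (vertical axis) for the 10 factors (green, named), the immediate early and handling genes (orange squares) and other genes (grey). The 83 genes beyond 2.6 log2 units on either axis are not drawn. Fosb and Nr4a1 lie farthest right among the 10, and all 10 lie within 0.53 log2 units of 0 on the vertical axis.

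Among relatives of the 10 genes, Batf and Maf rose. Of 20 measured other AP-1, BATF, ATF, CREB and MAF genes, 2 rose and none fell, against 1.82% higher and 2.46% lower over all genes. The other 18, with the remaining BATF and MAF genes among them, did not pass, and the list had a median log2 difference of 0.01. Batf, a small AP-1 factor that pairs with Jun proteins and acts with IRF4 in helper T cells, had log2 levels of 11.22 and 10.89 in lymphoma, against 9.19 and 8.99 in wild type. Its difference was 1.97 (SE 0.20, adjusted p = 0.00676 in limma). Maf, a regulator of interleukin 21 and of follicular helper cells, had 12.49 and 12.47 in lymphoma, against 11.72 and 11.55 in wild type. Its difference was 0.84 (SE 0.15, adjusted p = 0.033 in limma). The call on Maf was lost without the variance trend (adjusted p = 0.062 in limma) and with a covariate of Y-linked expression. Bach2, a repressor that competes with AP-1 for its sites in T cells and was named after its values were seen, had 9.38 and 6.89 in lymphoma, against 9.76 and 10.42 in wild type. It was low mainly on lymphoma array 2, and its difference of -1.96 (SE 0.75, adjusted p = 0.275 in limma) was -0.71 without that array and -3.20 without lymphoma array 1.

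No other EGR or NR4A gene passed among 5 measured, with the NAB corepressors included. Nr4a2, a paralog of Nr4a1, had log2 levels of 10.50 and 10.06 in lymphoma, against 8.44 and 9.76 in wild type, so that wild type array 1 was far below the other arrays. The difference was 1.18 (SE 0.43, adjusted p = 0.25 in limma), or 1.84 and 0.52 without the second and the first wild type array. Leaving out lymphoma array 1 gave 0.96 and leaving out lymphoma array 2 gave 1.40. Nr4a3 differed by 0.22 (SE 0.18) and Egr4 by -0.11 (SE 0.19). Nab1, which binds EGR proteins and represses their targets, had intensities of 1728 and 3145 in lymphoma, against 1072 and 1023 in wild type. Its difference of 1.15 (SE 0.29) had an adjusted p of 0.102 in limma. Leaving out lymphoma array 1 gave 1.59 and leaving out lymphoma array 2 gave 0.72.

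Upstream of these factors, 3 of 19 measured genes fell and none rose, against 2.46% lower and 1.82% higher over all genes. Rasgrp1, the diacylglycerol-responsive activator of Ras below the T cell receptor, had log2 levels of 10.61 and 10.44 in lymphoma, against 11.66 and 11.52 in wild type, a difference of -1.07 (SE 0.17, adjusted p = 0.0226 in limma). Ppp3ca, a catalytic subunit of calcineurin, differed by -1.61 (SE 0.23, adjusted p = 0.0181 in limma). Mef2c, a calcium-responsive factor that B cells and myeloid cells express strongly, differed by -2.48 (SE 0.37, adjusted p = 0.0198 in limma), on the arrays where B cell and myeloid markers fell. The remaining 16 did not pass, among them Srf, the gene of serum response factor.

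The receptor-induced genes and the handling genes differed in how many were called. Of 32 measured genes that receptor signalling is known to induce in T cells, 10 rose, none fell and 22 did not pass. Over all genes 1.82% rose and 2.46% fell. The median log2 difference of the 32 was 0.81. Under quantile normalization 5 rose. The protease gene Gzmb differed by 2.88, the chemokine gene Ccl3 by 2.34, the repressor gene Bhlhe40 by 1.99, the costimulatory receptor gene Tnfrsf4 by 1.73 and the inhibitory receptor genes Pdcd1 and Lag3 by 1.65 and 1.53. Bhlhe40 had log2 levels of 11.60 and 11.80 in lymphoma, against 9.26 and 10.16 in wild type (adjusted p = 0.0221 in limma, 0.0525 under quantile normalization). The call on Ccl3 (adjusted p = 0.0455 in limma) was lost in 4 of the settings that kept all arrays. Several of these genes also mark follicular helper, regulatory or exhausted cells, and the list was drawn up with results of these samples known. A difference in the share of CD4+ subsets was not tested.

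Of 30 measured immediate early and handling genes, 1 rose, 1 fell and 28 did not pass, against 1.82% higher and 2.46% lower over all genes. The list had a median log2 difference of 0.09. Nfkbia, the inhibitor of NF-kappaB, had log2 levels of 12.21 and 12.10 in lymphoma, against 11.29 and 11.19 in wild type, a difference of 0.92 (adjusted p = 0.0277 in limma). Klf2, a factor of quiescent T cells, had intensities of 454 and 513 in lymphoma, against 1422 and 1268 in wild type (log2 difference -1.48, adjusted p = 0.0112 in limma). Dusp1, an immediate early phosphatase that switches off MAP kinases, differed by 0.55 (SE 0.29) and was lowest on wild type array 1. Zfp36, which destabilises cytokine transcripts, differed by -0.70 (SE 0.19, adjusted p = 0.124 in limma), or by -0.91 without lymphoma array 1 (adjusted p = 0.0156 in limma).

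**Figure D4:**
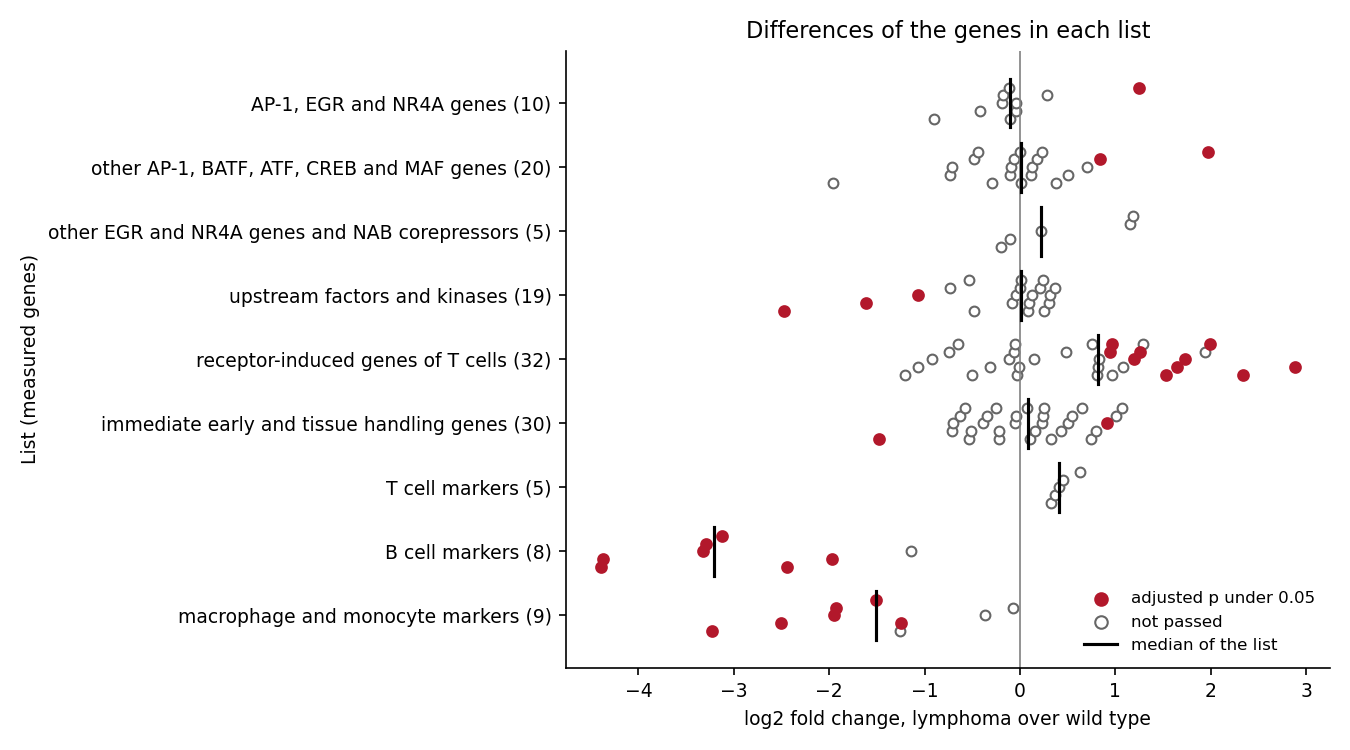
Log2 fold change of lymphoma over wild type (horizontal axis) for the measured genes of each list (vertical axis, number of genes in brackets), with filled red points for an adjusted p under 0.05 in limma and a black line at the median of the list. Fosl2 is the only filled point among the 10 factors, the receptor-induced list has 10 and the B cell list 7.

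Over the 4 arrays the 10 patterns formed a close set and a few apart. Likeness was measured as the Euclidean distance between log2 values centred on each gene's own mean. The closest pair of the 45 was Junb and Egr1 with 0.14, then Fosb and Nr4a1 with 0.26 and Fos and Egr1 with 0.28. Fosl2 and Egr3, which moved apart between the groups, were the farthest pair with 2.23, and the median pair was at 0.82. Outside the 10, the nearest of 17320 genes were Cldn16, Il25 and Teddm2 for Fos (0.02 to 0.04), Septin12, Cst13 and Veph1 for Egr1 (0.03 each) and Trmt61b, Krt26 and Tcl1b5 for Nr4a1 (0.10 each). With 4 arrays and so many genes, near matches arise readily, and these distances carry no test.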

How the data were processed

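Total RNA from CD4+ spleen cells was biotin-labelled and hybridised to 1 Affymetrix array per sample, 2 lymphoma and 2 wild type, grouped by sample title. The authors deposited linear intensity values per probe set, made with Affymetrix Expression Console per the submitters' processing notes. Background correction, normalization and software version were not stated in the sources used here, and detection calls were not used. Of 35556 probe sets, 21789 had 1 gene symbol in GEO's platform annotation, 1621 had several and 12146 were not listed. The probe set with the highest mean was used per gene, leaving 19938 genes.

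Log2 values were fitted in limma 3.58.1 (R 4.3.3) by group alone, with a variance trend, two-sided, with Benjamini-Hochberg adjustment over all genes (2 residual and 4.24 prior degrees of freedom). The median SE of 0.199 and the number of arrays limit the precision. The procedure was tested on simulated data. Members, lists and tests were chosen with earlier results of these data known. Named genes were the 10 factors, Tet2, CD3 genes and Cd4, up to 6 called genes of each list by size (or the 2 largest differences), 7 immediate early relatives, and the 3 nearest patterns of Fos, Egr1 and Nr4a1. Others are stated as named after their values were seen. Alternatives were 8 other settings and leaving out each of the 4 arrays, plus a covariate of Y-linked expression added after the data were seen. Figures were drawn with matplotlib 3.10.9.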

Additional observations from a re-analysis of the deposited data

How the results depend on the processing

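With 1 array left out, genes called higher ranged from 0 to 1057 and genes called lower from 0 to 843. No gene passed in limma without a wild type array, where only the lymphoma pair gave the spread. At an unadjusted p under 0.05, 1418 genes were higher and 890 lower without wild type array 1, and 929 and 1120 without wild type array 2. When a lymphoma array was left out, the remaining one was assumed to vary like the wild type pair. Among the 10 factors the number called higher ranged from 0 to 1 and the number called lower from 0 to 1 with 1 array left out. It was 0 higher under quantile normalization and 0 higher with the replicate number as a block, where Fosl2 had a difference of 1.25 and an adjusted p of 0.0604. The number does not show a pairing in the labels (deviations of same-numbered arrays correlated at 0.228 across genes), and the block gave 429 genes higher and 555 lower over all genes. With array medians subtracted Junb turned to 0.03 and Egr1 to 0.04. Differences with 1 array left out ranged from -0.35 to 0.13 for Fos, -0.82 to 0.46 for Fosb, -0.42 to 0.33 for Junb, -0.22 to 0.02 for Jund, -0.32 to 0.24 for Egr1, -0.72 to 0.33 for Nr4a1 and -0.27 to 0.06 for Egr4. Across the settings that kept all 4 arrays the 10 factors held direction and side of the threshold in 86 fits, lost a call in 2 and turned sign in 2, and the cause was not tested. Several of these settings, among them the block, could not change the log2 difference of a factor. In those only the side of the threshold could move. With the Y-linked covariate, added after the data were seen, Fosl2 had 1.22 (adjusted p = 0.0273 in limma) and Nab1 passed (1.20, adjusted p = 0.0404 in limma), while Maf did not pass.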
